A study of Sus scrofa with 18 samples.

Results

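The vacuolar proton pump (V-ATPase) was followed through 10 of its genes in cloned pig embryos: ATP6V0D2, ATP6V0D1, ATP6V0B and ATP6V0E1 of the membrane sector, ATP6V1A, ATP6V1B2, ATP6V1C1, ATP6V1D and ATP6V1H of the cytosolic sector, and the accessory gene ATP6AP2. They are 10 of the 24358 genes in the deposited tables, 9 found by their symbol and ATP6V0E1 by the description the tables give for it. The set was chosen by a difference already seen in these libraries, the FPKM of ATP6V0D2 in vitrified against fresh blastocysts, so the blastocyst values of vitrified against fresh embryos are given as a description, with no test.

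The embryos were made by somatic cell nuclear transfer, in which a donor cell is fused to an enucleated oocyte. The donor cells were grown from ear tissue of Diannan miniature pigs and the oocytes came from slaughterhouse ovaries, so all groups are clones. Vitrified 2-cells, 4-cells and blastocysts developed from zygotes that had been vitrified (cooled to a glass in liquid nitrogen) and warmed, and fresh 2-cells, 4-cells and blastocysts from zygotes that had not. Each of the 6 groups had 3 RNA-seq libraries, collected 24 h (pools of 4 embryos), 48 h (pools of 2 embryos) and 144 h (1 embryo each) after activation. All values are FPKM, fragment numbers scaled to transcript length and library size, and a gene without signal is listed at 0.0001. A 4-cell library covers 2 embryos and a blastocyst library 1, so p-values measure the spread between such small pools. In whole embryos fewer cells of a type and less RNA per cell cannot be told apart.

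The V-ATPase is a rotary motor. Its V1 sector splits ATP in the cytosol and turns a central stalk, and the stalk turns a ring of proteolipids in the membrane-bound V0 sector, which carries protons into endosomes, lysosomes, the Golgi and secretory vesicles. Subunit d sits on top of the ring and couples it to the stalk, and it has 2 forms in mammals, the widely expressed d1 (ATP6V0D1) and d2 (ATP6V0D2), which is known in mice from osteoclasts, macrophages and kidney. The assembled pump also takes part in amino acid sensing on the lysosome.

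The libraries held 7551 to 8841 genes at 1 FPKM or more. Mean correlations with the other libraries of the same stage were 0.941 to 0.967 for 2-cells, 0.869 to 0.892 for 4-cells and 0.949 to 0.964 for blastocysts, except for vitrified 4-cell library 3, at 0.763. Summed over all 26 subunit genes measured, pump mRNA was 682 to 951 FPKM in 2-cells, 911 to 1129 FPKM in 4-cells and 5267 to 6046 FPKM in blastocysts. The trophectoderm markers CDX2 (1.96 to 2.45 FPKM in vitrified and 2.51 to 4.12 FPKM in fresh blastocysts) and KRT18 (1322 to 1918 FPKM in vitrified and 2118 to 2471 FPKM in fresh blastocysts) were present in all blastocysts, and KRT18 was listed at 0.0001 FPKM in all 2-cells and 4-cells.

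**Figure D1:**
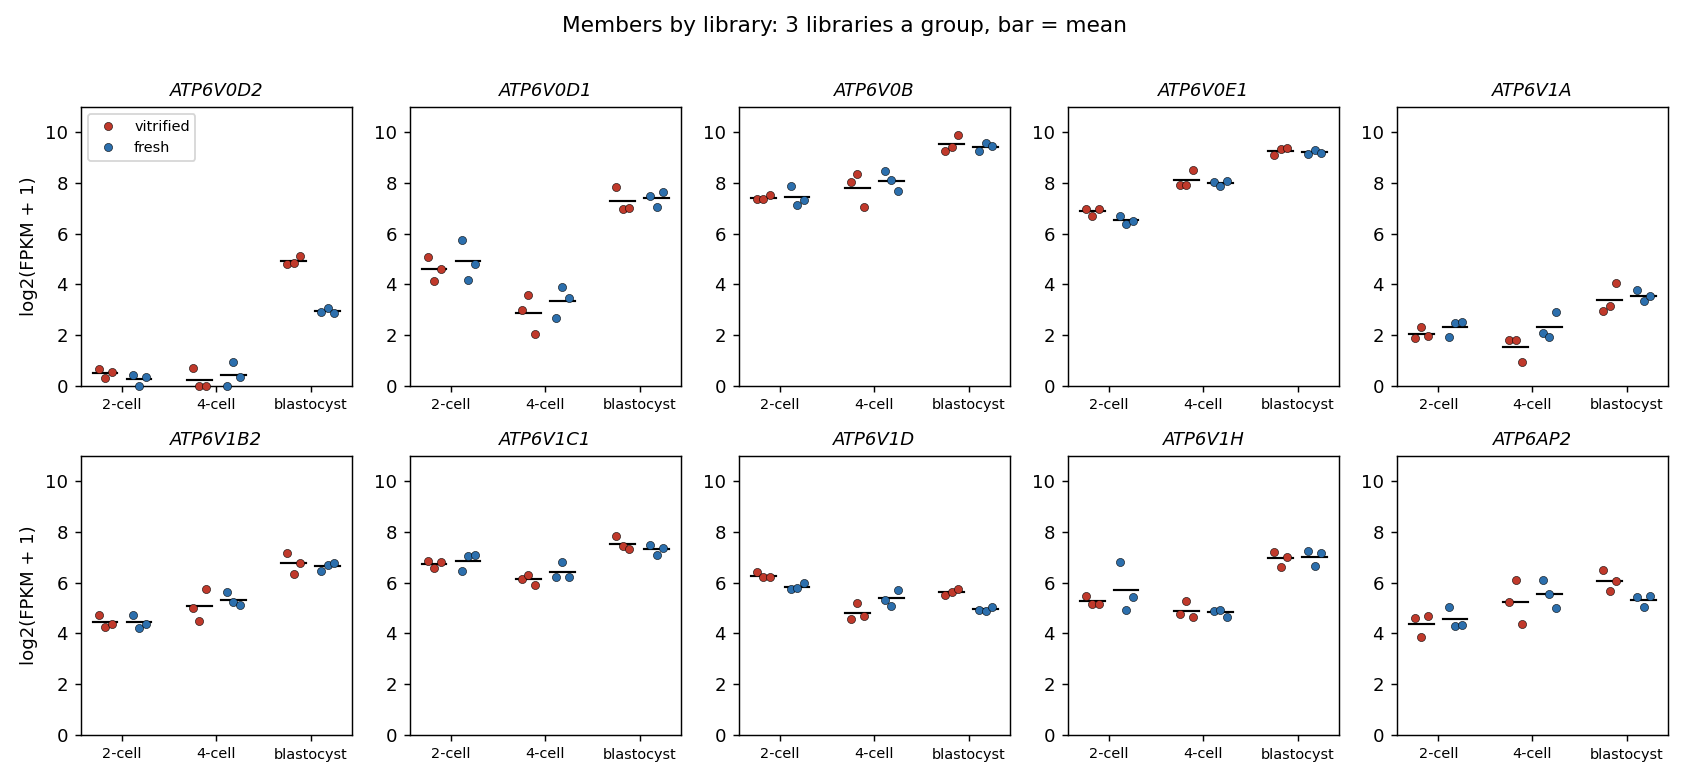
The 10 pump genes by library: each panel plots log2(FPKM + 1) for 3 vitrified (red) and 3 fresh (blue) libraries a stage, with a bar at the group mean. ATP6V0D2 is under 1 FPKM in all 2-cell and 4-cell libraries, and its vitrified blastocysts (27.4 to 34.3 FPKM) lie above the fresh ones (6.26 to 7.39 FPKM).

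ATP6V0D2 was close to absent until the blastocyst. In 2-cells it was at 0.589, 0.252 and 0.466 FPKM in vitrified libraries and at 0.333, 0.0001 and 0.277 FPKM in fresh libraries. In 4-cells it was at 0.625, 0.0001 and 0.0001 FPKM in vitrified libraries and at 0.0001, 0.893 and 0.287 FPKM in fresh libraries. The groups overlapped at both stages, no library reached 1 FPKM, and the gene was below the filter for a test there.

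In blastocysts ATP6V0D2 was at 27.4, 27.4 and 34.3 FPKM in vitrified embryos, against 6.61, 7.39 and 6.26 FPKM in fresh embryos. All 3 vitrified values lay above all 3 fresh values. The means were 29.7 ± 3.98 FPKM in vitrified and 6.75 ± 0.577 FPKM in fresh blastocysts (SD, n = 3 each), a ratio of 4.39, and the difference of 1.98 (SE 0.18) on the log2(FPKM + 1) scale stood 5th from the top of 7833 genes. This is the difference for which the gene was chosen.

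ATP6V0D1, the other form of subunit d, was at 229, 125 and 130 FPKM in vitrified blastocysts and at 179, 132 and 197 FPKM in fresh blastocysts. These values overlap, and the means of 161 ± 58.6 FPKM in vitrified and 169 ± 33.3 FPKM in fresh blastocysts (SD, n = 3 each) had a ratio of 0.950. ATP6V0D2 therefore made up 10.7%, 18% and 20.9% of the summed FPKM of both d genes in vitrified blastocysts, against 3.56%, 5.29% and 3.08% in fresh blastocysts. Even in the highest library d1 was the larger part.

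The balance of the 2 d genes was also set out as the log2 ratio of ATP6V0D2 + 1 to ATP6V0D1 + 1 FPKM. It averaged -2.35 ± 0.591 in vitrified and -4.44 ± 0.403 in fresh blastocysts (SD, n = 3 each), a difference of 2.09. In 2-cells it was -4.10 ± 0.295 in vitrified and -4.66 ± 0.60 in fresh libraries, a difference of 0.56 (two-sided exact permutation p = 0.20), and in 4-cells -2.64 ± 0.822 in vitrified and -2.92 ± 0.208 in fresh libraries, a difference of 0.27 (exact p = 0.60). With 3 libraries against 3 the smallest p an exact test allows is 0.10. With a pseudocount of 0.1 the difference was 1.34 in 2-cells (exact permutation p = 0.10) and -0.27 in 4-cells (exact permutation p = 0.90). ATP6V0D2 made up 1.77%, 1.49% and 1.94% of both d genes in vitrified 2-cells, against 0.628%, 0.0006% and 1.00% in fresh 2-cells. These shares did not overlap, but all rest on ATP6V0D2 values under 1 FPKM. In these early stages the ratio with 1 FPKM added follows the level of ATP6V0D1, since ATP6V0D2 adds less than the pseudocount of 1 FPKM.

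**Figure D2:**
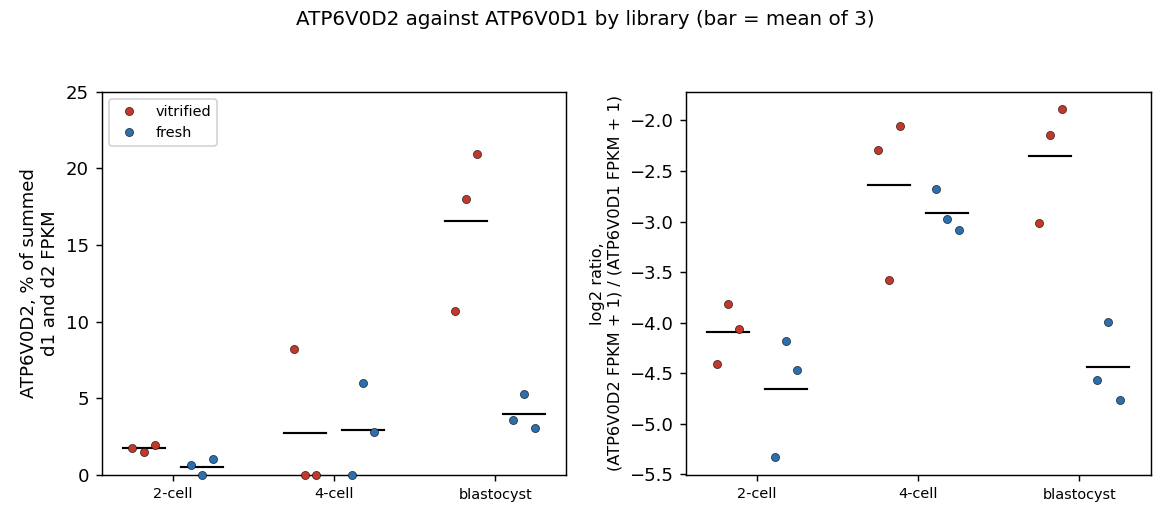
The 2 forms of subunit d by library: ATP6V0D2 as a percent of the summed FPKM of ATP6V0D2 and ATP6V0D1 (left) and the log2 ratio of the 2 genes after adding 1 FPKM (right), for 3 vitrified (red) and 3 fresh (blue) libraries a stage, with a bar at the mean. The vitrified blastocysts reach 10.7% to 20.9%, above the fresh blastocysts at 3.08% to 5.29%.

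Among the other subunits, ATP6V1D and ATP6AP2 also separated the blastocyst groups. ATP6V1D, a part of the rotating central stalk that subunit d couples to the ring, was at 44.6, 49.1 and 53.3 FPKM in vitrified and at 29.4, 28.7 and 32.4 FPKM in fresh blastocysts, a ratio of means of 1.62. ATP6AP2, the prorenin receptor and an accessory protein of the pump, was at 89.7, 50.4 and 65.5 FPKM in vitrified and at 42.3, 31.7 and 43.4 FPKM in fresh blastocysts, a ratio of 1.75. Every vitrified value of both genes was above every fresh value, and the log2 differences were 0.68 (SE 0.16) and 0.77 (SE 0.25), inside a doubling.

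The remaining 6 pump genes overlapped between the blastocyst groups. The 2 most abundant were ATP6V0B, the c″ proteolipid of the ring, at 617, 695 and 963 FPKM in vitrified and 614, 774 and 705 FPKM in fresh blastocysts, and ATP6V0E1, the small e subunit, at 556, 655 and 662 FPKM in vitrified and 569, 623 and 588 FPKM in fresh blastocysts. The catalytic subunit gene ATP6V1A had the lowest level, at 6.72, 7.75 and 15.8 FPKM in vitrified and 12.8, 9.08 and 10.7 FPKM in fresh blastocysts. The log2 differences of ATP6V0B, ATP6V0E1, ATP6V1A, ATP6V1B2, ATP6V1C1 and ATP6V1H lay between -0.17 and 0.22. With libraries scaled by their median ratio, ATP6V0B (-0.07), ATP6V0E1 (-0.10) and ATP6V1B2 (-0.06) turned to the other side of 0. Of the 9 genes other than ATP6V0D2, 2 did not overlap, both higher in vitrified blastocysts, beside 17.3% of all 7833 genes tested that were higher without overlap and 22.6% in either direction, and their median difference was 0.10, beside 0.11 over all genes. At a difference beyond 1 with unadjusted p under 0.05 in limma, 2.26% of all genes were called.

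**Figure D3:**
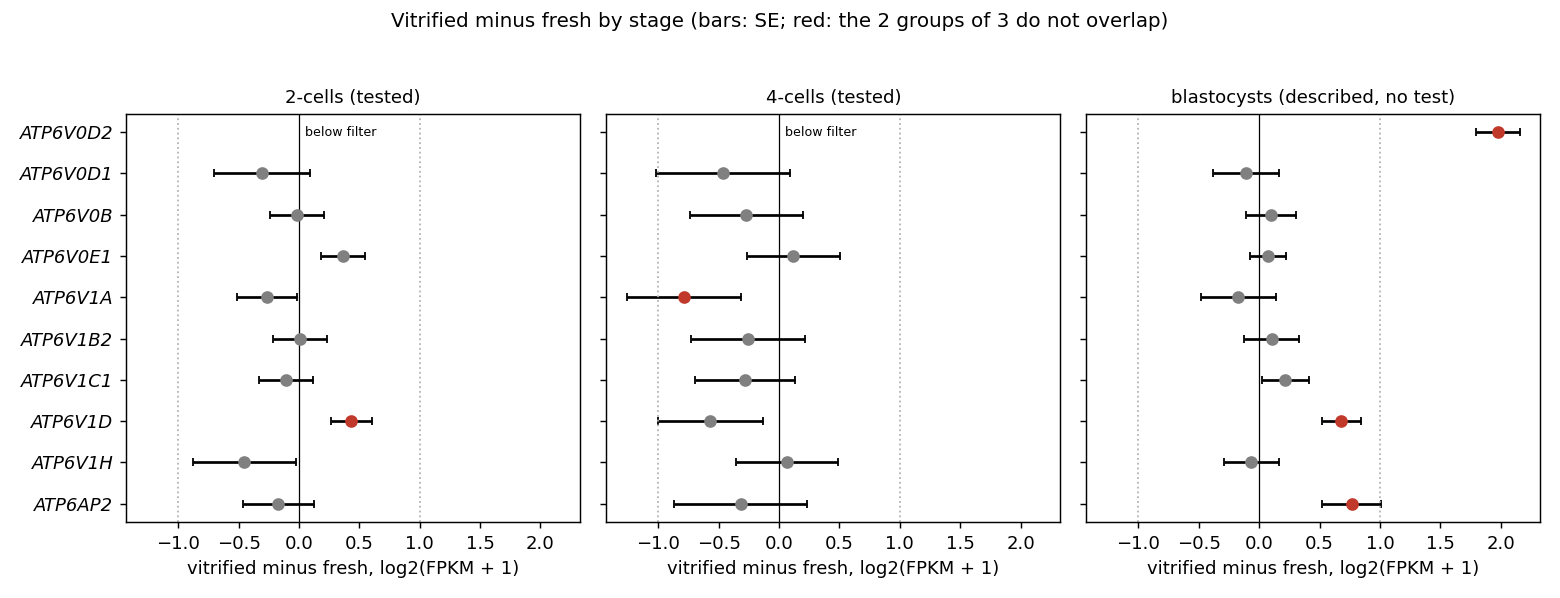
Vitrified minus fresh for the 10 pump genes in 2-cells, 4-cells and blastocysts, as the difference in mean log2(FPKM + 1) with its standard error (bars) and red points where the 3 vitrified and 3 fresh values do not overlap. ATP6V0D2 stands at 1.98 in blastocysts, while the other 9 lie between -0.17 and 0.77 there.

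At the 2-cell stage no tested pump gene passed the call rule for vitrified against fresh embryos. The rule asks for a log2 difference beyond 1 with an unadjusted p under 0.05 in limma, which 0.450% of 8449 genes met, and no gene passed at an adjusted p under 0.05. Of 9 pump genes tested, 3 were above 0 and 6 below, with a median of -0.11, beside -0.05 over all genes. ATP6V1D came nearest to a difference, at 83.9, 73.2 and 74.4 FPKM in vitrified and 53.4, 54.7 and 62.5 FPKM in fresh 2-cells. Its groups did not overlap, as for 3.73% of all genes higher in vitrified 2-cells, and its difference was 0.43 (SE 0.17, limma unadjusted p = 0.0345, adjusted p = 1.0). It was the 1 pump gene of 9 with an unadjusted p under 0.05, as 3.75% of all genes had.

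ATP6V0E1 was at 125, 103 and 126 FPKM in vitrified and 103, 81.7 and 89.5 FPKM in fresh 2-cells, a difference of 0.37 (limma unadjusted p = 0.0796). The lowest vitrified value and the highest fresh value both round to 103 FPKM, and the groups narrowly overlapped. ATP6V0D1 was at 32.7, 16.7 and 23.5 FPKM in vitrified and 52.7, 17.1 and 27.4 FPKM in fresh 2-cells, and ATP6V1H, the regulatory subunit that holds back the free V1 sector, at 44.1, 35.2 and 34.8 FPKM in vitrified and 111, 29.5 and 42.6 FPKM in fresh 2-cells. Both overlapped, and in both the highest value was that of fresh 2-cell library 1. Without that library the difference of ATP6V0D1 was 0.11 in place of -0.31 and that of ATP6V1H 0.09 in place of -0.45.

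At the 4-cell stage again no pump gene was called, against 3.46% of 8769 genes in limma, and 0 of 9 had an unadjusted p under 0.05, against 3.72% of all genes. Of 9 tested, 2 were above 0 and 7 below, with a median of -0.28, beside -0.16 over all genes. ATP6V1A, which carries the ATP-splitting site, was at 2.46, 2.52 and 0.922 FPKM in vitrified and 3.18, 2.84 and 6.51 FPKM in fresh 4-cells. These values did not overlap, as for 8.34% of all genes lower in vitrified 4-cells, and the difference of -0.79 (SE 0.47) had an unadjusted p of 0.129 in limma.

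ATP6V1D was at 22.7, 35.7 and 24.5 FPKM in vitrified and 39.1, 33.3 and 51.6 FPKM in fresh 4-cells, overlapping, with a difference of -0.57 (limma unadjusted p = 0.222). Its ratio of means was thus 1.36 in 2-cells, 0.669 in 4-cells and 1.62 in blastocysts. The difference in 4-cells minus that in 2-cells was -1.0 (SE 0.35, limma unadjusted p = 0.0102, adjusted p = 0.516). No pump gene passed this test of a changed effect at an adjusted p under 0.05, which 0.0176% of 11361 genes did, and ATP6V1D alone had an unadjusted p under 0.05, as 7.36% of all genes had.

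The spread was wide in 4-cells: the standard errors of the 9 tested genes were 0.39 to 0.55, against 0.17 to 0.43 in 2-cells. ATP6AP2 was at 36.5, 67.6 and 19.6 FPKM in vitrified and 67.4, 46.1 and 31.0 FPKM in fresh 4-cells. ATP6V1B2, the non-catalytic B subunit that binds nucleotide beside A, was at 30.7, 21.7 and 52.5 FPKM in vitrified and 48.8, 37.1 and 33.6 FPKM in fresh 4-cells. In both the spread within a group exceeded the difference between groups. Vitrified 4-cell library 3, which stood apart from the other 4-cells, held the lowest 4-cell value of ATP6V0D1 (3.16 FPKM), ATP6V0B (133 FPKM), ATP6V1A (0.922 FPKM) and ATP6AP2 (19.6 FPKM), and the highest of ATP6V0E1 (366 FPKM) and ATP6V1B2 (52.5 FPKM). Without this library the differences were 0.11 for ATP6V0B, -0.08 for ATP6V0E1 and 0.11 for ATP6AP2, each of the opposite sign, and no pump gene was called.

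The contrasts between stages average vitrified and fresh libraries at each stage, and genes were called at an adjusted p under 0.05 in limma with a log2 difference beyond 1. From 2-cells to 4-cells the pump genes went different ways. ATP6V0E1 was higher in 4-cells, at 236 to 366 FPKM, against 81.7 to 126 FPKM in 2-cells, a difference of 1.35 (SE 0.16, adjusted p = 1.56e-05). ATP6V0D1 was lower in 4-cells, at 3.16 to 13.9 FPKM, against 16.7 to 52.7 FPKM in 2-cells, a difference of -1.65 (SE 0.32, adjusted p = 0.00101). Neither gene's ranges overlapped between the stages.

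Those were the calls among the 9 pump genes other than ATP6V0D2 in 4-cells against 2-cells, where 16.9% of all genes were called, 8.83% higher and 8.09% lower. ATP6V0D2, under 1 FPKM at both stages, could not reach a difference of 1 and is left out of the count. Just inside the limit of 1 stood ATP6V1D, at 22.7 to 51.6 FPKM in 4-cells and 53.4 to 83.9 FPKM in 2-cells (difference -0.97, limma adjusted p = 0.000498), and ATP6AP2 (0.92, limma adjusted p = 0.0231). Their calls depend on single libraries: without fresh 4-cell library 3 both passed, at -1.06 and 1.06, ATP6V1D passed without vitrified 4-cell library 2 (-1.07), and ATP6AP2 passed without fresh 2-cell library 1 (1.04), without vitrified 4-cell library 3 (1.14) and with quantile scaling (1.05). The log2 ratio of ATP6V0D2 to ATP6V0D1 was -2.78 ± 0.556 in 4-cells and -4.38 ± 0.524 in 2-cells (SD, n = 6 each), a difference of 1.60 (exact permutation p = 0.00216, 0.00649 adjusted over 3 stage pairs). ATP6V0D2 was under 1 FPKM in all of these libraries, so this ratio mostly restates the lower ATP6V0D1 of 4-cells, and its p is not a separate result. With a pseudocount of 0.1 the difference of the ratio was 1.28 and the adjusted exact p 0.0974.

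In blastocysts most pump genes stood higher than in 4-cells. ATP6V0D2 passed the filter through its blastocyst values alone and had to differ, so it is left out of the count: of the other 9, 7 were called higher and 0 lower, where 24.8% of 11361 genes were called higher and 37.0% lower (61.8% in all). Their median difference was 1.51, beside -0.48 over all genes. ATP6V0D1 had the largest, at 125 to 229 FPKM in blastocysts, against 3.16 to 13.9 FPKM in 4-cells (difference 4.23, SE 0.32, limma adjusted p = 2.34e-09), and its ratio of mean FPKM was 19.7. ATP6V1H followed, at 98.8 to 150 FPKM in blastocysts, against 24.0 to 37.6 FPKM in 4-cells (2.13, limma adjusted p = 1.2e-06).

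The other 5 called genes had differences of 1.15 to 1.56. ATP6V1A was at 6.72 to 15.8 FPKM in blastocysts, against 0.922 to 6.51 FPKM in 4-cells, and ATP6V1B2 at 80.7 to 142 FPKM, against 21.7 to 52.5 FPKM in 4-cells. ATP6V1C1, which bridges V1 and V0 and is released when the pump comes apart, was at 136 to 229 FPKM in blastocysts, against 59.6 to 111 FPKM in 4-cells. None of these ranges overlapped. ATP6V1D (0.20, limma adjusted p = 0.287) and ATP6AP2 (0.31, limma adjusted p = 0.342) were not called. After quantile scaling of the libraries, ATP6V0B (0.56), ATP6V0E1 (0.21) and ATP6V1C1 (0.86) fell inside 1, which left 4 of the 9 called, where 30.3% of all genes were called higher.

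Against 2-cells, 7 of the same 9 genes were called higher in blastocysts and 0 lower, where 27.3% of all genes were called higher and 39.1% lower (66.4% in all). The exceptions were ATP6V1C1 (0.62, limma adjusted p = 0.00587, and 1.29 with median-ratio scaling) and ATP6V1D, which was at 28.7 to 53.3 FPKM in blastocysts, against 53.4 to 83.9 FPKM in 2-cells (-0.77, limma adjusted p = 0.000581). ATP6V1D was the 1 pump gene of the 10 that lay below its 2-cell level. ATP6V0D2, given as values only, was at 6.26 to 34.3 FPKM in blastocysts, against 0.0001 to 0.589 FPKM in 2-cells, with a ratio of mean FPKM of 57.0.

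**Figure D4:**
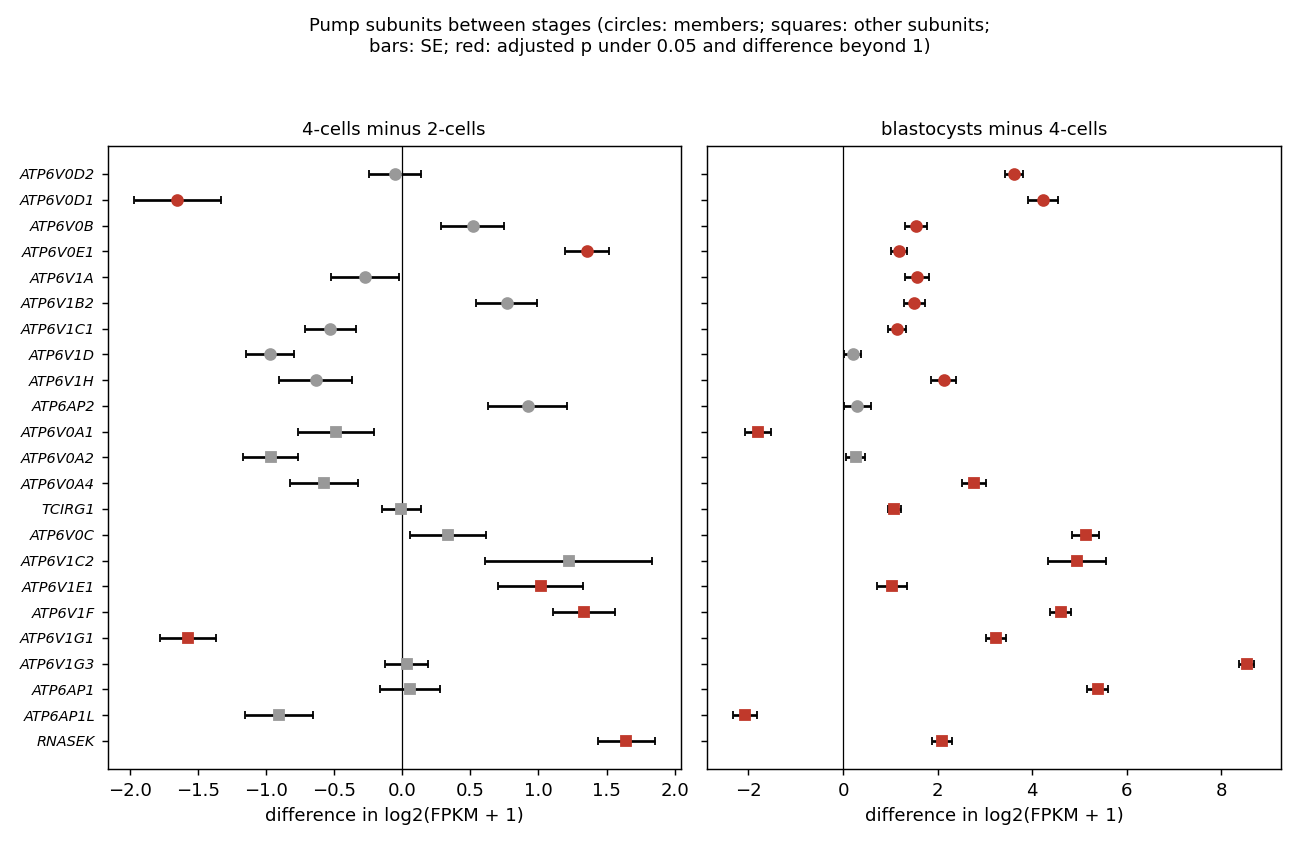
Stage differences of the 10 pump genes (circles) and 13 other subunit genes (squares) in log2(FPKM + 1), for 4-cells minus 2-cells (left) and blastocysts minus 4-cells (right), with standard errors as bars and red for an adjusted p under 0.05 beyond 1. ATP6V0D1 is at -1.65 on the left and 4.23 on the right, and ATP6V1D at -0.97 and 0.20. ATP6V0D2, TCIRG1, ATP6V1C2 and ATP6V1G3 passed the filter through their blastocyst values alone and had to differ on the right, so their colour there is no test.

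FPKM are scaled to transcript length, so levels can also be ranked between genes. In 2-cells the medians over 6 libraries ran from ATP6V0B (164 FPKM) through ATP6V1C1 (113), ATP6V0E1 (103), ATP6V1D (67.9), ATP6V1H (38.9), ATP6V0D1 (25.4), ATP6AP2 (21.2) and ATP6V1B2 (19.6) to ATP6V1A (3.45) and ATP6V0D2 (0.305 FPKM). Neighbours overlapped except ATP6V0B and ATP6V1C1, ATP6V1B2 and ATP6V1A, and ATP6V1A and ATP6V0D2. In 4-cells ATP6V0B (268 FPKM) and ATP6V0E1 (255 FPKM) led, apart from ATP6V1C1 (73.9 FPKM), and ATP6V0D1 stood above only ATP6V1A and ATP6V0D2, at 8.44 FPKM. In blastocysts ATP6V0D1 was the fourth at 156 FPKM, and the lowest places went to ATP6V0D2 and ATP6V1A. ATP6V0D2 lay above ATP6V1A in vitrified blastocysts (means of 29.7 and 10.1 FPKM) and below it in fresh blastocysts (6.75 and 10.9 FPKM). The sole step without overlap between neighbours there was between ATP6V0E1 (606 FPKM) and ATP6V1C1 (169 FPKM).

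The paralogs beside ATP6V0D2 changed by stage as well. Subunit a forms the proton path with the ring, and its kidney-known form ATP6V0A4 took 23.0% of summed a-subunit FPKM in 2-cells, 22.7% in 4-cells and 80.0% in blastocysts (means, n = 6). ATP6V0A1, known from neurons, took 45.5% in 2-cells, 51.8% in 4-cells and 3.58% in blastocysts. For subunit G of the outer stalk, ATP6V1G3 was listed at 0.0001 FPKM in all 2-cells and took 0.296% in 4-cells and 76.8% in blastocysts. For subunit C, ATP6V1C2 took 0.03% in 2-cells, 5.17% in 4-cells and 30.3% in blastocysts, where the 4-cell share came from 2 libraries, vitrified 3 and fresh 3 (14.6 FPKM in fresh 3 and 0.183 FPKM or less in the 4 others). Subunit B kept to ATP6V1B2, and ATP6V1B1 was at 0.381 FPKM or less in all libraries.

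**Figure D5:**
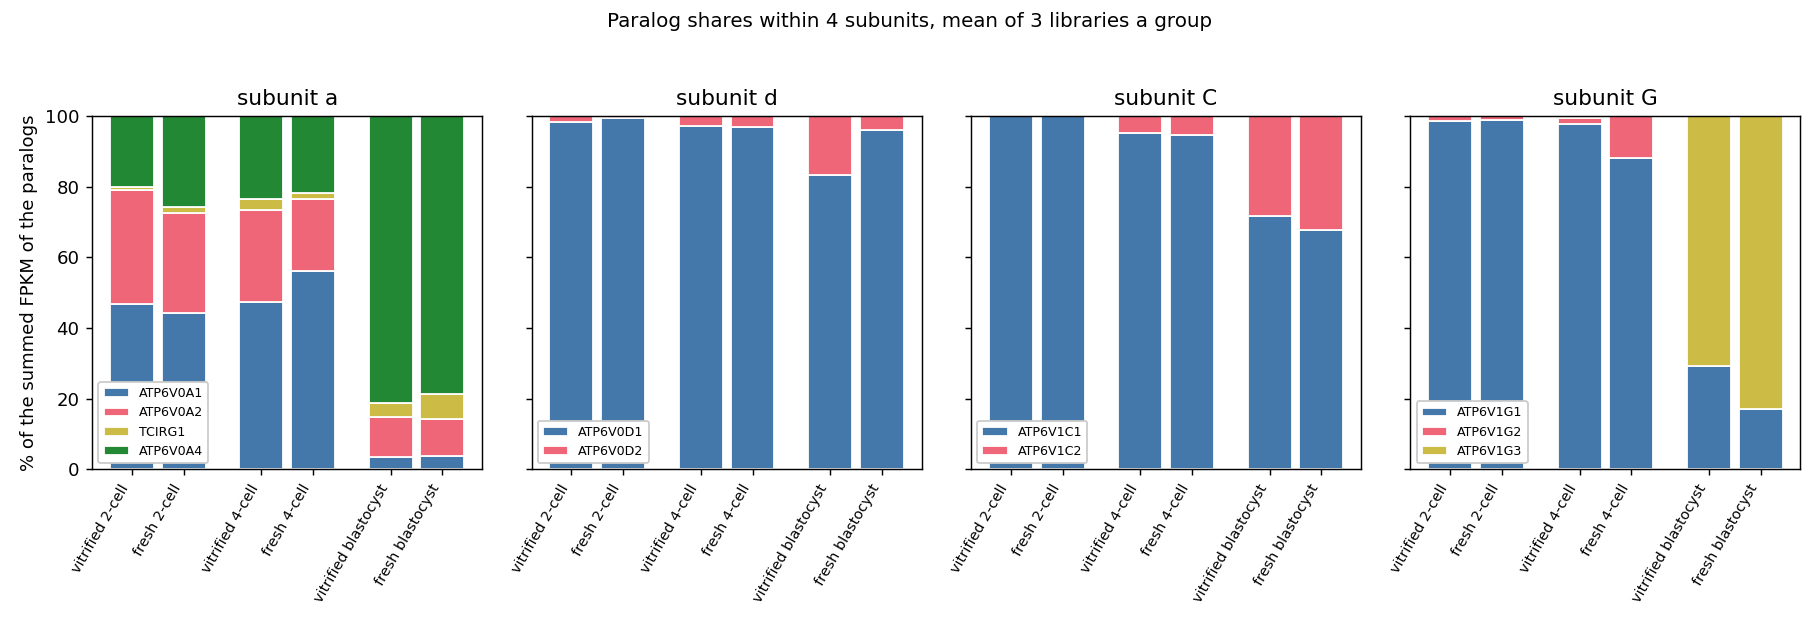
Shares of the paralogs in the summed FPKM of subunits a, d, C and G, as the mean of 3 libraries in each of the 6 groups. ATP6V0D2 is the small part of subunit d in every group, with a mean of 16.5% in vitrified and 3.98% in fresh blastocysts, and ATP6V1G3 holds 70.6% of subunit G in vitrified and 83.0% in fresh blastocysts.

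Among the lists of genes around the pump, 10 of 42 genes tested did not overlap between vitrified and fresh blastocysts, 8 higher and 2 lower, beside 22.6% of all genes. Of 13 further subunit genes tested in blastocysts, ATP6V1G1 was at 178, 130 and 127 FPKM in vitrified and 97.8, 67.1 and 86.9 FPKM in fresh blastocysts, ATP6AP1L at 7.59, 7.87 and 7.73 FPKM in vitrified and 6.36, 3.73 and 5.36 FPKM in fresh blastocysts, and ATP6V1E1 at 85.1, 81.6 and 96.4 FPKM in vitrified and 81.3, 60.4 and 66.4 FPKM in fresh blastocysts. These 3 were higher in vitrified blastocysts without overlap. TCIRG1, the a3 form known from osteoclasts, was lower without overlap, at 1.04, 1.35 and 1.28 FPKM in vitrified and 1.51, 2.30 and 2.33 FPKM in fresh blastocysts. ATP6V1G3 was at 295, 461 and 321 FPKM in vitrified and 394, 467 and 384 FPKM in fresh blastocysts, overlapping. Its share of subunit G did not overlap, at 62.3% to 77.9% in vitrified and 80.1% to 87.4% in fresh blastocysts. The share of TCIRG1 in subunit a did not overlap either, at 2.32% to 5.29% in vitrified and 5.44% to 8.32% in fresh blastocysts. The shares of ATP6V0A4 in subunit a and of ATP6V1C2 in subunit C overlapped. Of the 5 lists beyond the 10 genes, 0 of 32 genes tested in 2-cells (1 with an unadjusted p under 0.05 in limma) and 1 of 33 in 4-cells met the call rule, beside 0.450% and 3.46% of all genes. That 1 was SLC38A9, the lysosomal arginine sensor, at 3.36, 3.45 and 1.90 FPKM in vitrified and 7.97, 7.11 and 8.33 FPKM in fresh 4-cells (-1.20, SE 0.43, limma adjusted p = 0.947). It was 1 of 4 among 11 lysosome signalling genes, with RRAGA, RRAGB and FLCN, that were lower in vitrified 4-cells without overlap, beside 8.34% of all genes.

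By stage the same lists were mixed. Leaving out genes that passed the filter through their blastocyst values alone, 7 of 10 further subunit genes were called higher and 2 lower in blastocysts against 4-cells, where 24.8% of all genes were called higher and 37.0% lower. The proteolipid ATP6V0C (35.3 times) and the stalk subunit ATP6V1F (24.5 times in mean FPKM) were among the higher ones, and ATP6V0A1 (-1.80) and ATP6AP1L (-2.07 on the log2 scale) were the lower ones. Of 8 genes for assembly and regulation 2 were higher and 2 lower, of 13 genes for signalling on the lysosome 5 were higher and 3 lower, of 4 genes for ion channels and exchangers 2 were higher and 0 lower, and the 1 MiT factor gene left was not called. The genes left out were 3 further subunits, 3 of assembly, 2 MiT factors and 4 channels.

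The markers of the cells in which d2 is best known were low in blastocysts. Of 9 osteoclast and macrophage markers 8 were measured, and their summed level was 0.0257 to 2.23 FPKM in vitrified and 0.338 to 3.93 FPKM in fresh blastocysts, with CD68 the highest at up to 3.46 FPKM. The sum was 14.5 to 18.9 FPKM in 2-cells and 8.23 to 16.5 FPKM in 4-cells, carried by few of the markers. Of the 8, 2 had a mean of 1 FPKM or more in each 2-cell group and 3 in each 4-cell group. ACP5, OCSTAMP and CSF1R were listed at 0.0001 FPKM in all vitrified 2-cells. DCSTAMP was listed at 0.0001 FPKM in all blastocysts, and ACP5 and OCSTAMP in all vitrified blastocysts. The 6 trophectoderm markers summed to 1965 to 3377 FPKM in vitrified and 3569 to 3965 FPKM in fresh blastocysts, without overlap. KRT18, far above CDX2 in level, weighs heavily in this sum. Among these, CDX2 and KRT18 were lower and GATA3 (30.4 to 31.5 FPKM in vitrified and 22.3 to 25.1 FPKM in fresh blastocysts) was higher without overlap. Over all 7833 genes tested in blastocysts, 22.6% did not overlap in either direction. Hypoblast markers summed to 20.7 to 23.7 FPKM in vitrified and 15.3 to 18.2 FPKM in fresh blastocysts, also without overlap, a sum carried by GATA6, while SOX17 and PDGFRA were not higher in vitrified blastocysts. The inner cell mass markers overlapped, at 103 to 247 FPKM in vitrified and 105 to 239 FPKM in fresh blastocysts, as did oocyte markers, at 1.60 to 2.24 FPKM in vitrified and 1.21 to 5.68 FPKM in fresh blastocysts. Cumulus markers summed to 0.108 to 0.267 FPKM in vitrified and 0.0157 to 0.0641 FPKM in fresh blastocysts, and donor fibroblast markers to 0.690 FPKM or less. The part of these markers in the ATP6V0D2 difference was not tested.

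The genes whose log2(FPKM + 1) pattern was most like that of ATP6V0D2 over 18 libraries, among 11360 genes, were AMOTL2 (Pearson r = 0.98), MAGIX, JDP2, ITM2C and NPPB (0.97 each). These values include the step to the blastocyst, which all 5 share. With the stage means removed, what is left of ATP6V0D2 is mostly the blastocyst difference for which it was chosen, so that ranking picks out genes with the same difference and is a description only. In it JDP2 (0.87), AMOTL2 (0.86), SMIM15 (0.84) and MAGIX (0.84) were among the first 5. JDP2, a transcription factor of the AP-1 family, averaged 15.6 ± 2.62 FPKM in vitrified and 8.01 ± 0.686 FPKM in fresh blastocysts (SD, n = 3 each). With a pseudocount of 0.1, none of the 5 stayed among the first 5 in either ranking. Of the pump genes ATP6V1D had r = 0.57 with ATP6V0D2 once stage means were removed, ATP6V1G1 0.55 and ATP6V0D1 0.11. With the pseudocount of 0.1 that of ATP6V1D was 0.40, behind ATP6V0A2 (0.64) and ATP6V0A4 (0.62).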

How the data were processed

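Full-length cDNA (SMART-Seq v4) from the embryo pools was sequenced after Nextera XT preparation, per the study's methods, while the extraction text of the labels describes small RNA libraries. The tables list FPKM of annotated genes, so the methods were followed. The authors trimmed reads with Cutadapt, mapped them with Bowtie2 and HISAT2 and computed FPKM with StringTie; the genome build and versions are not given in the sources used here. The deposited tables give FPKM per gene and library, with 0.0001 as the lowest value. They hold no counts, and whole-read steps were looked for and not found. The paper lists sequencing and mapping statistics of the libraries, which were not used here. Precision comes only from the spread between libraries. The authors' columns of fold changes (as ratio and log2), p-values and q-values were not used.

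The 3 tables were joined on gene identifiers. limma 3.58.1 (R 4.3.3) with a mean-variance trend was fitted to log2(FPKM + 1), which understates changes of low genes, per stage (at least 1 FPKM in 3 of 6 libraries) and over 18 libraries (3 of 18) for stages. Adjusted p-values are Benjamini-Hochberg over all genes tested. Ratios were compared by two-sided exact permutation tests in SciPy 1.17.1 (Python 3.11.15, pandas 2.3.3, matplotlib 3.10.9). The fits were also run on simulated data, with an outcome that is not reported here. Changes were simulated only in genes of higher level, so the run does not cover genes as low as ATP6V0D2 before the blastocyst. The 10 members and all lists were chosen with earlier results of these data known. Named were all members, paralogs and list genes called in a comparison, and the 5 genes most like ATP6V0D2 in each ranking (1 of the second ranking is not reported here); ATP6AP1L, ATP6V1E1, TCIRG1 in blastocysts, RRAGA, RRAGB, FLCN, the marker genes and JDP2's levels were picked after their values were seen. Replicate numbers are shared between vitrified and fresh labels. Deviations of same-numbered 4-cells correlated at 0.22, 0.37 and 0.42, but vitrified 4-cell 1 correlated as much with fresh 2 (0.23) as with fresh 1. A pairing of 4-cells by number is thus possible and not settled. Same-numbered 2-cells (0.03, -0.11 and 0.11) and blastocysts (0.25, 0.05 and 0.0003) were not paired throughout. The main fits used no pairing. Alternatives were a pseudocount of 0.1, no filter, quantile and median-ratio scaling, the replicate block and leaving out each library. ATP6V0E2, HAS2 and CTSK were not analysed here, and no promoter or protein sequence was used here.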

Additional observations from a re-analysis of the deposited data

Results flagged for a closer look

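The effect of vitrification on ATP6V1D, the central stalk subunit, differed between stages at an unadjusted p of 0.0102 in limma: the difference in 4-cells minus that in 2-cells was -1.0 on the log2 scale. The gene was higher in all 3 vitrified than in all 3 fresh 2-cell libraries, and in 4-cells 2 of 3 vitrified libraries (22.7 and 24.5 FPKM) lay below every fresh one. The adjusted p over all genes was 0.516, so the result does not pass the correction, and 7.36% of all genes had an unadjusted p under 0.05 in the same test.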

How the results depend on the processing

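The precision of all values rests on 3 libraries a group, and the FPKM carry no depth. Values under 1 FPKM, such as those of ATP6V0D2 before the blastocyst, are therefore uncertain. They fell below the filter within a stage, and the added 1 FPKM shrinks their differences. Of 1118 values of tested pump genes under the alternatives, 1075 kept their direction and their side of the threshold, 33 changed sign, 3 lost and 7 gained a call, and the cause was not tested. These include ATP6V0D2 in blastocysts against earlier stages, where it had to differ. They also include stage contrasts refitted without a library of a stage outside the contrast, whose differences cannot move. The number kept is therefore no measure of stability. The genes called in vitrified against fresh 2-cells (38) numbered 99 with a pseudocount of 0.1, 25 with no filter and 43 to 116 when each library was left out (116 without fresh 1, 73 without fresh 2, 78 without fresh 3). In 4-cells (303) they numbered 486 with the replicate block, which called 0 pump genes (as the replicate block changed the call of no pump gene in any comparison), and 152 to 722 when a library was left out (166 without fresh 1, 152 without fresh 2, 722 without vitrified 2). In blastocysts (177) they numbered 363 with a pseudocount of 0.1 and 161 to 293 when a library was left out (293 without vitrified 3), while the ATP6V0D2 difference was 1.79 after quantile and 1.83 after median-ratio scaling and 1.87 to 2.04 with a library left out. The genes whose effect differed between 4-cells and 2-cells (2) numbered 4 with a pseudocount of 0.1, 9 with no filter and 0 to 72 with a library left out (72 without vitrified 4-cell 2). Scaling moved the split of calls, higher against lower: with quantile and median-ratio scaling it was 22 to 13 and 17 to 18 in 2-cells (15 to 23 as deposited), 165 to 129 and 144 to 136 in 4-cells (87 to 216), 54 to 82 and 53 to 92 in blastocysts (117 to 60), 3442 to 3413 and 3592 to 3363 for blastocysts against 4-cells (2813 to 4207), and 3704 to 3787 and 3846 to 3616 for blastocysts against 2-cells (3097 to 4442). Pump genes called between blastocysts and 4-cells numbered 5 after quantile scaling with ATP6V0D2 counted (4 of the other 9, against 7 of 9 as deposited), and between 4-cells and 2-cells 2 to 4 with a library left out. For the log2 ratio of ATP6V0D2 to ATP6V0D1, a pseudocount of 0.1 gave 1.28 for 4-cells minus 2-cells, 1.40 for blastocysts minus 4-cells (against -0.62), 2.68 for blastocysts minus 2-cells (against 0.98), both given without a test because they rest on the blastocyst values of ATP6V0D2, and -0.27 for vitrified minus fresh 4-cells, which with a library left out lay between -0.023 and 0.74. For vitrified minus fresh 2-cells that pseudocount gave 1.34 (exact permutation p = 0.10), against 0.56. With that pseudocount 0 of the 5 genes most like ATP6V0D2 were shared in either ranking. The sign changes were all in differences that were not called. With a library left out, the 2-cell differences ranged from -0.68 to 0.11 for ATP6V0D1, -0.18 to 0.20 for ATP6V0B (0.026 with median-ratio scaling), -0.13 to 0.16 for ATP6V1B2, -0.31 to 0.0079 for ATP6V1C1, -0.85 to 0.090 for ATP6V1H and -0.32 to 0.086 for ATP6AP2. The 4-cell differences ranged from -0.54 to 0.11 for ATP6V0B, -0.082 to 0.22 for ATP6V0E1, -0.59 to 0.030 for ATP6V1B2, -0.12 to 0.19 for ATP6V1H and -0.75 to 0.11 for ATP6AP2, and that of ATP6V0D2 for 4-cells minus 2-cells from -0.18 to 0.053. The change of the vitrification effect ranged from -0.58 to 0.25 for ATP6V0D1, -0.53 to 0.12 for ATP6V0B, -0.60 to 0.022 for ATP6V1B2, -0.29 to 0.033 for ATP6V1C1, -0.024 to 0.92 for ATP6V1H and -0.58 to 0.28 for ATP6AP2.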
